A study of Mus musculus with 16 samples.

Results

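The 8 genes described here mark the surface and the identity of the cells that line blood vessels: Pecam1, Esam, Icam2, Cd34, Emcn, Vwf, Fgd5 and Tmem204. They were taken by symbol from the probes of a mouse expression array, and all 8 were measured, by 10 probes, among the 17710 genes that the array's probes named. The arrays held RNA of 6 cell populations of C57BL/6 mice whose genotype the labels give as normal. Heart c-kit cells (n = 3) were sorted from the heart for the receptor c-kit, and heart Sca1 cells (n = 3) were sorted from the heart as positive for Sca1 and negative for CD45 and CD31. Heart side population cells (SP, n = 2) were taken by their efflux of a Hoechst dye. Marrow c-kit cells (n = 3) were sorted from bone marrow for c-kit. Marrow mesenchymal stem cells (MSC, n = 3) were isolated from bone marrow and grown for 5 passages. Cardiomyocytes (n = 2), titled as the control, were isolated by brief slow centrifugation, with no sort named. The labels of all 16 samples name the same Matrigel-coated dishes and mTeSR medium. CD31 is the protein that Pecam1 encodes, so the heart Sca1 sort was gated on a product of one of the 8 genes.

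Endothelial cells form the inner lining of vessels, and the heart is dense with capillaries. Pecam1, Esam and Icam2 encode adhesion molecules of the immunoglobulin superfamily: Pecam1 and Esam proteins join neighbouring cells at their junctions, and Icam2 is a ligand for leukocyte integrins. Cd34 and Emcn (endomucin) encode sialomucins, heavily glycosylated proteins of the luminal surface. Vwf encodes von Willebrand factor, which endothelial cells store and release to tether platelets. Fgd5 encodes an exchange factor that activates the small GTPase Cdc42, and Tmem204 a claudin-like membrane protein. None of them is exclusive to endothelium: Pecam1 and Icam2 are also found on leukocytes and platelets, Vwf in megakaryocytes, Cd34 on blood progenitors and stromal fibroblasts, and Esam and Fgd5 in mouse blood stem cells.

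In the mouse assembly GRCm38.p6 the genes lie on separate chromosomes except for the pairs Fgd5 and Vwf (chromosome 6) and Icam2 and Pecam1 (chromosome 11). Cd34 spans chr1:194938821-194961292, Emcn chr3:137341062-137431069, Fgd5 chr6:91978827-92076005 and Vwf chr6:125552948-125686679. Esam spans chr9:37528089-37538319, Icam2 chr11:106377656-106388139, Pecam1 chr11:106654213-106715281 and Tmem204 chr17:25057702-25081114.

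RefSeq promoter windows of GRCm38.p6 were at hand for 3 of the 8 genes, Emcn, Fgd5 and Cd34, and all 3 are shown. Each window runs from 250 bases before to 50 bases after the start site of the table, 300 bases on the plus strand. Capitals mark matches on either strand to AGGAAG, a core of ETS factor sites, and to ACAAT, a core of SOX factor sites.
Emcn promoter, chr3:137340828-137341127, plus strand: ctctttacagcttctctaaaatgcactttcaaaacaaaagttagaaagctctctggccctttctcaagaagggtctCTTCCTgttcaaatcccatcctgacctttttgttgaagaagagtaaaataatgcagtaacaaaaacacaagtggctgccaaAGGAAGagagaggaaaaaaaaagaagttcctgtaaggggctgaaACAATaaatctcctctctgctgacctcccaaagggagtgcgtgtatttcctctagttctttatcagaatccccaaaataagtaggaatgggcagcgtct
Fgd5 promoter, chr6:91978715-91979014, plus strand: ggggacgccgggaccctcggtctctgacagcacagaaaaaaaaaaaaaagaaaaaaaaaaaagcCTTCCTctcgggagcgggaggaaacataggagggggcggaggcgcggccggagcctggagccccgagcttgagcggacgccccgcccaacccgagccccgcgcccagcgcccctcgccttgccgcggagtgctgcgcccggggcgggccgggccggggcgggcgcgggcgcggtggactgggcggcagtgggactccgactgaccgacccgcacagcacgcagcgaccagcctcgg
Cd34 promoter, chr1:194938571-194938870, plus strand: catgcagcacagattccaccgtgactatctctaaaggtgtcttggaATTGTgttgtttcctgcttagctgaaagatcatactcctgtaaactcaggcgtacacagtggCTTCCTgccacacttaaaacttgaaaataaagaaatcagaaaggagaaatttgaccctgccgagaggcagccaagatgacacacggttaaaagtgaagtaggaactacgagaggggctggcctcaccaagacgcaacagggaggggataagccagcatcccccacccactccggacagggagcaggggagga
The ETS core occurred in all 3 windows, at -174 on the minus strand and -93 on the plus strand in Emcn, at -186 on the minus strand in Fgd5 and at -142 on the minus strand in Cd34, counted from the start site to the first base of the match. The SOX core occurred in Emcn at -49 on the plus strand and in Cd34 at -204 on the minus strand. A GATA factor core, spelled AGATAA, was searched on both strands and had no match in these windows. The TATA box, spelled TATAAA, had none either. Of all 32851 promoter windows of the table, 35.4% held the ETS core, 31.0% the SOX core, 11.2% the GATA core and 13.6% the TATA box. No motif overlapped another in these matches. The windows differed in base composition, with a GC content of 41% in Emcn, 71.3% in Fgd5 and 50% in Cd34.

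Levels are given on the normalised log2 scale, on which 1 unit is a 2-fold difference in Cy5 signal and 0 is close to the mean of all probes of an array. The level of one probe is not comparable with that of another, so each gene was compared only with itself across samples. The number of arrays limits the precision, and nothing in the labels says whether replicates came from separate animals, so a p-value measures only the spread between these samples. The 2 SP arrays were dim, with median spot intensities of 15 and 22, and so was 1 heart c-kit array (18); the other 13 arrays had medians of 45 to 200. Marker lists were read beside the labels. The 8 measured genes of the cardiomyocyte list averaged at most 2.92 on any array of the other populations and 6.01 to 6.13 on the cardiomyocyte arrays. The blood stem and progenitor list averaged 2.39 to 2.93 in marrow c-kit cells and at most 0.89 elsewhere. The macrophage and leukocyte list was highest in the marrow MSC samples, at 5.04 to 5.74 for its 10 measured genes, against at most 3.15 on any other array.

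**Figure D1:**
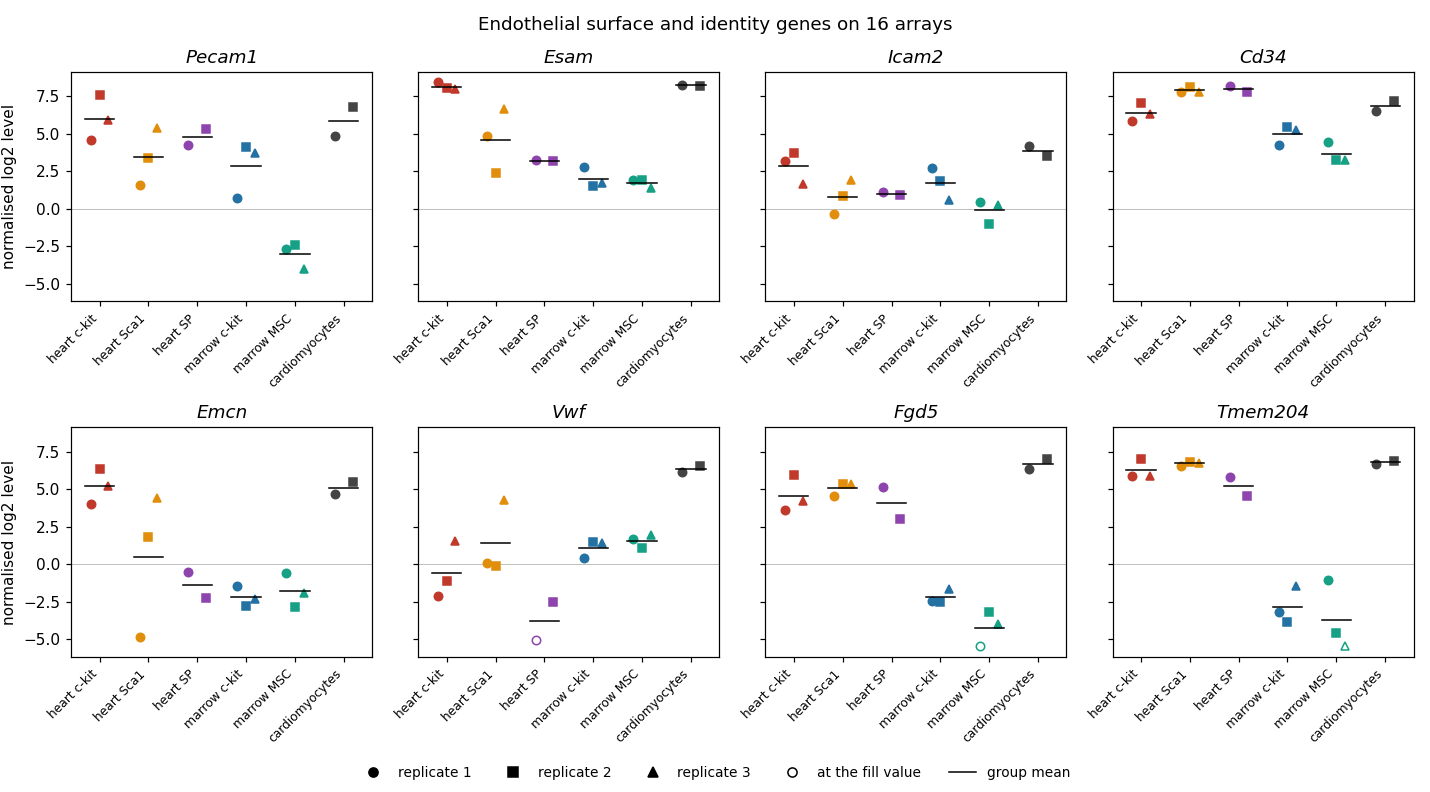
Normalised log2 level (y axis) of each of the 8 genes on the 16 arrays, by cell population (x axis); each point is an array and each bar a group mean. Fgd5 and Tmem204 lie at 3.04 or more on every heart array and below 0 on every marrow array, whereas Vwf is highest on the 2 cardiomyocyte arrays.

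All 8 genes differed among the 6 populations in limma's moderated F test with Benjamini-Hochberg adjustment over 17710 genes, with adjusted p-values from 1.53e-06 for Fgd5 to 0.0173 for Icam2. The same test called 31.9% of all genes, so a call alone is common in these data and the order of the populations carries the description that follows.

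Pecam1 was lowest in marrow MSC, and its levels in heart Sca1 cells overlapped those in marrow c-kit cells. Its levels were 4.59, 7.57 and 5.90 in heart c-kit cells, 1.57, 3.39 and 5.38 in heart Sca1 cells, 4.23 and 5.32 in SP cells, 0.70, 4.11 and 3.74 in c-kit cells of the marrow, -2.69, -2.42 and -4.02 in MSC, and 4.89 and 6.78 in cardiomyocytes. The order of means was heart c-kit cells (6.02 ± 1.5, SD, n = 3), cardiomyocytes (5.83 ± 1.34, n = 2), SP cells (4.78 ± 0.77, n = 2), heart Sca1 cells (3.45 ± 1.90, n = 3), marrow c-kit cells (2.85 ± 1.87, n = 3) and MSC (-3.04 ± 0.86, n = 3). Each of the first 5 overlapped its neighbour in that order, SP cells stood above cardiomyocytes under both other scalings (array medians aligned, deposited values as they are), and only MSC stood clear of the population above it. The 3 Pecam1 probes put MSC far below all other populations but placed the heart Sca1 cells differently. The difference of heart c-kit from heart Sca1 cells was 2.57 ± 1.12 (SE) by the probe with the highest mean, which stands for the gene here, and 2.10 ± 0.78 and 4.01 ± 1.08 by the other probes. By the last of these probes heart Sca1 cells stood at 0.82, -1.31 and 3.90 and marrow c-kit cells at 1.97, 3.00 and 2.60. With the probes averaged, marrow c-kit cells had a higher mean than heart Sca1 cells.

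**Figure D2:**
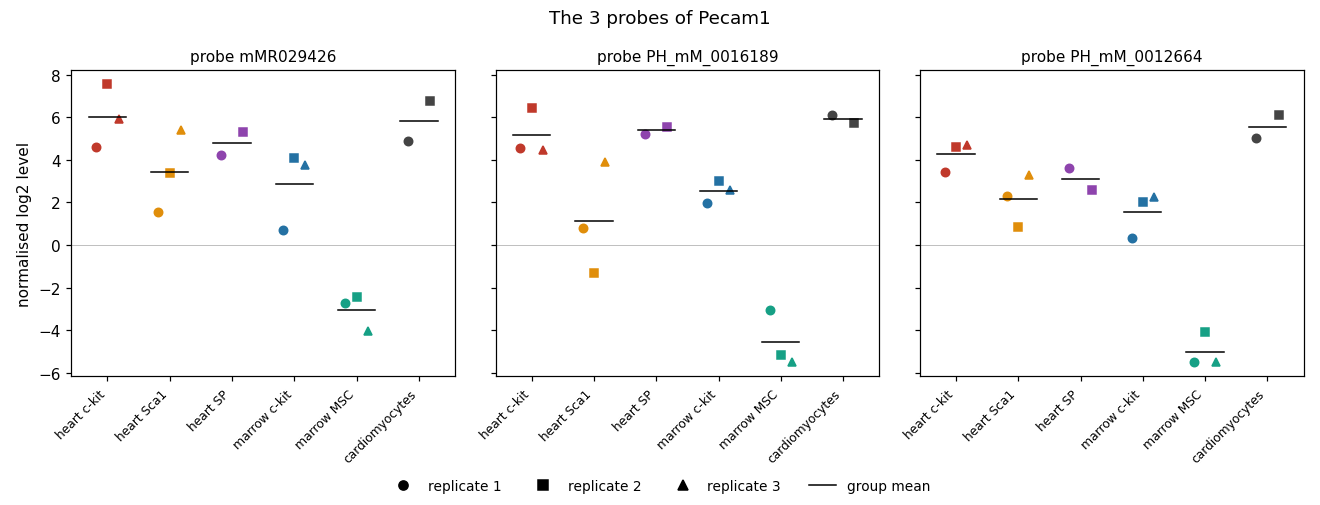
Normalised log2 level (y axis) of the 3 Pecam1 probes on each array, by cell population (x axis), with group means as bars. Each probe is lowest in MSC, and in heart Sca1 cells replicate 3 (triangle) is the highest of the 3 arrays by every probe.

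Esam divided the cardiac populations more sharply. It stood at 8.44, 8.05 and 7.99 in heart c-kit cells, 4.82, 2.39 and 6.63 in heart Sca1 cells, 3.27 and 3.16 in SP cells, 2.77, 1.55 and 1.71 in c-kit cells of the marrow, 1.89, 1.94 and 1.41 in MSC, and 8.29 and 8.21 in cardiomyocytes. Heart c-kit cells and cardiomyocytes overlapped and lay above all other arrays. The group means were 8.16 ± 0.25 (SD, n = 3) in heart c-kit cells, 4.61 ± 2.13 (n = 3) in heart Sca1 cells, 3.21 ± 0.08 (n = 2) in SP cells, 2.01 ± 0.66 (n = 3) in c-kit cells of the marrow, 1.75 ± 0.29 (n = 3) in MSC and 8.25 ± 0.06 (n = 2) in cardiomyocytes. Heart Sca1 and SP cells overlapped each other, as did the marrow populations.

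Icam2 left no gap between neighbouring populations. Its levels were 3.19, 3.72 and 1.63 in heart c-kit cells, -0.35, 0.83 and 1.90 in heart Sca1 cells, 1.13 and 0.89 in SP cells, 2.69, 1.84 and 0.60 in c-kit cells of the marrow, 0.48, -1.03 and 0.25 in MSC, and 4.20 and 3.55 in cardiomyocytes. The lowest mean was that of MSC (-0.10 ± 0.81, SD, n = 3), and the highest was that of cardiomyocytes (3.88 ± 0.46, n = 2), or of heart c-kit cells with array medians aligned. Every population overlapped the next in the order.

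Cd34 had its highest means in SP and heart Sca1 cells, and was alone among the 8 genes in this at this normalisation; with array medians aligned SP cells also had the highest mean of Fgd5 and Tmem204, and in the deposited values heart Sca1 cells that of Tmem204. It stood at 8.17 and 7.83 in SP cells and at 7.76, 8.16 and 7.82 in heart Sca1 cells, above every array of the other populations. Heart c-kit cells had 5.83, 7.05 and 6.33, marrow c-kit cells 4.29, 5.44 and 5.27, MSC 4.47, 3.24 and 3.26, and cardiomyocytes 6.51 and 7.22. The means were 8.0 ± 0.24 (SD, n = 2) in SP cells, 7.91 ± 0.21 (n = 3) in heart Sca1 cells, 6.40 ± 0.61 (n = 3) in heart c-kit cells, 5.00 ± 0.62 (n = 3) in marrow c-kit cells, 3.66 ± 0.71 (n = 3) in MSC and 6.86 ± 0.50 (n = 2) in cardiomyocytes. The fibroblast list, whose cells are also known to carry Cd34, was likewise highest in heart Sca1 cells (mean levels of 6.41 to 6.67 over its 10 genes) and SP cells (5.54 to 5.63), against 4.47 to 5.28 in cardiomyocytes, and its part in the Cd34 levels was not tested.

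Emcn, the other sialomucin, took a different order. Heart c-kit cells had 4.03, 6.35 and 5.22 (mean 5.20 ± 1.16, SD, n = 3), SP cells -0.52 and -2.27, c-kit cells of the marrow -1.43, -2.78 and -2.32, MSC -0.56, -2.87 and -1.93, and cardiomyocytes 4.68 and 5.51 (5.10 ± 0.58, n = 2). Heart c-kit cells and cardiomyocytes overlapped at the top, and SP cells overlapped both marrow populations at the bottom. Heart Sca1 cells spanned both ranges, at -4.86, 1.82 and 4.45, which gave a mean of 0.47 ± 4.8 (SD, n = 3), the widest spread of any of the 8 genes in any population. In spot intensity these 3 arrays read 2, 450 and 2265.

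Vwf stood apart in the other direction, with its highest level in cardiomyocytes. It was at -2.13, -1.12 and 1.55 in heart c-kit cells, 0.07, -0.13 and 4.31 in heart Sca1 cells, 0.43, 1.48 and 1.42 in c-kit cells of the marrow, 1.66, 1.08 and 1.93 in MSC, and 6.18 and 6.55 in cardiomyocytes (6.36 ± 0.26, SD, n = 2). SP cells had -2.56 on one array, and on the other the probe carried the value that the deposited table repeats at many probes of an array. No other population overlapped the cardiomyocytes. Heart c-kit cells, which overlapped cardiomyocytes in Pecam1, Emcn and Esam, thus lay below them in Vwf. The megakaryocyte and platelet list, another source of Vwf, averaged -1.79 to 0.89 over the arrays of the other populations and 0.28 to 0.55 in cardiomyocytes.

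Fgd5 and Tmem204 separated heart from marrow. Fgd5 stood at 3.60, 5.94 and 4.19 in heart c-kit cells, 4.58, 5.35 and 5.37 in heart Sca1 cells and 5.18 and 3.04 in SP cells, at -2.45, -2.50 and -1.68 in c-kit cells of the marrow, at -3.18 and -4.02 in MSC with 1 array at the repeated value, and at 6.37 and 7.05 in cardiomyocytes. Tmem204 stood at 5.90, 7.05 and 5.90 in heart c-kit cells, 6.58, 6.84 and 6.77 in heart Sca1 cells and 5.85 and 4.53 in SP cells, at -3.18, -3.89 and -1.49 in c-kit cells of the marrow, at -1.04 and -4.57 in MSC with 1 array at the repeated value, and at 6.68 and 6.92 in cardiomyocytes. No marrow array reached any heart array for either gene. Over the 16 arrays these genes were the most alike of the 28 pairs among the 8 (Pearson r = 0.949), and Vwf and Cd34 the least (r = -0.172).

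The first question was where each population stood against cardiomyocytes. Heart c-kit cells differed from them in 1 of the 8 genes: Vwf fell by 6.93 ± 1.29 (SE, adjusted p = 0.00860, limma). Its call was lost when 1 of the 2 cardiomyocyte arrays was left out, and 2.59% of all genes were called lower in this comparison. Its call was also lost under both other scalings. For the other 7 genes the differences ran from -2.13 for Fgd5 to 0.19 for Pecam1, 5 of them changed sign when array medians were aligned, and the 95% confidence intervals of Emcn (-3.90 to 4.11), Esam (-2.04 to 1.86) and Pecam1 (-2.51 to 2.88) were wide. The SP and marrow levels of some genes came from very dim spots, so those differences are also given with values under the 30th percentile of the normalised table raised to it, which removes the order among dim spots. SP cells were lower in 2 genes, Vwf by -10.17 ± 1.41 (adjusted p = 0.00146) and Esam by -5.04 ± 1.00 (adjusted p = 0.0128), against 3.29% of all genes called lower. The Vwf difference rests on an SP spot of intensity 7 and one at the repeated value, and its size is not resolved at such levels; it was -8.00 with low values raised. The Esam call was lost without either cardiomyocyte array and under both other scalings. With array medians aligned Cd34 was called in place of Esam, as higher in SP cells, when 2619 of all genes were called in either direction. Emcn differed by -6.49 ± 2.04 (adjusted p = 0.0811) and did not pass, but with low values raised it was called at -6.18 (adjusted p = 0.0290). That setting called 1396 of all genes in this comparison, against 916 in the main fit. Raising low values also removes spread among dim spots, which can lower p while the difference shrinks. Emcn was also called without heart Sca1 replicate 1 or 3. The SEs and intervals pool the spread of all 6 populations, and Emcn had an SD of 4.8 in heart Sca1 cells.

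Heart Sca1 minus cardiomyocytes called no gene of the 8, and 0 of all 17710 genes (0%), in limma after adjustment. At an unadjusted p under 0.05, 4 of the 8 were lower (Vwf, Emcn, Esam and Icam2), as were 34 of the 56 measured genes of a list of other endothelial genes, with 1 higher. Of all 17710 genes, 11.7% passed that level in either direction, with 1058 lower and 1009 higher. The differences were -4.95 ± 1.29 for Vwf, -3.64 ± 0.91 for Esam, -3.08 ± 0.86 for Icam2 and -4.63 ± 1.87 for Emcn. Without heart Sca1 replicate 3 they were -6.39, -4.65, -3.64 and -6.62, and Vwf and Esam then passed, when 0.926% of all genes did. Replicate 3 was the highest Sca1 array for these genes, so its omission lowers their Sca1 means by construction. Without Sca1 replicate 1 or 2 no gene of the 8 passed.

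Marrow populations lay far below cardiomyocytes. Marrow c-kit cells were lower in 5 genes, against 7.43% of all genes called lower. Tmem204 differed by -9.65 ± 1.08 (adjusted p = 4.20e-05) and Fgd5 by -8.92 ± 0.87 (adjusted p = 1.22e-05). Emcn differed by -7.27 ± 1.87 (adjusted p = 0.0192), Esam by -6.24 ± 0.91 (adjusted p = 0.000402) and Vwf by -5.25 ± 1.29 (adjusted p = 0.0149). MSC fell below cardiomyocytes in all 8 genes, against 3.94%, with the differences running from -10.94 ± 0.87 for Fgd5 (adjusted p = 2.50e-05) and -10.50 ± 1.08 for Tmem204 to -3.21 ± 0.62 for Cd34 (adjusted p = 0.00650). Pecam1 differed by -8.88 ± 1.25 (adjusted p = 0.000896) and Icam2 by -3.98 ± 0.86 (adjusted p = 0.0113) there. The MSC spots read 20 and 3 in intensity for Fgd5 and 34 and 9 for Tmem204, each with the remaining array at the repeated value, and 9, 37 and 3 for Pecam1, so the sizes are not resolved. With low values raised the MSC differences were -8.35 for Fgd5, -8.24 for Tmem204 and -7.47 for Pecam1, and those of marrow c-kit cells -8.35 for Fgd5 and -8.39 for Tmem204; all of these stayed called. Leaving out cardiomyocyte replicate 1 or replicate 2 reduced these counts to 3 for marrow c-kit cells and 5 for MSC in each case, and Vwf and Emcn were among the calls lost. Both other scalings gave 3 for marrow c-kit cells and 4 for MSC, where Cd34 and Icam2 were lost as well. In MSC the Vwf and Emcn calls were also lost without any 1 of the MSC arrays or without marrow c-kit replicate 2 or 3 (for Emcn also replicate 1), and in marrow c-kit cells Vwf was lost without replicate 1 and Emcn without replicate 2 or 3.

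**Figure D3:**
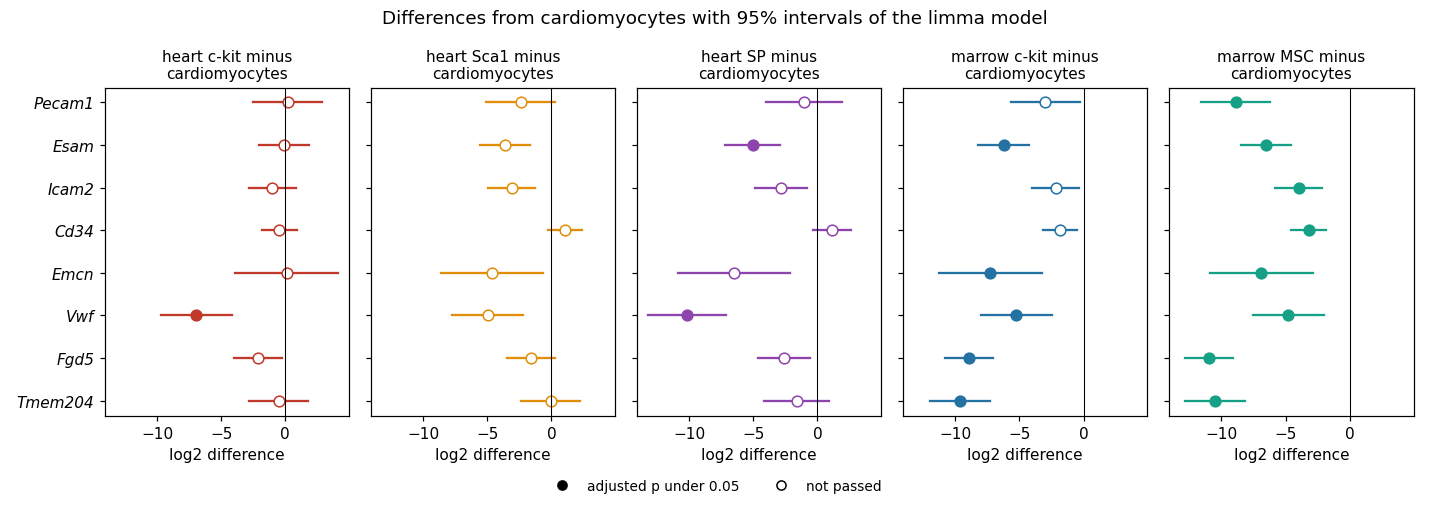
Log2 difference from cardiomyocytes (x axis) of each of the 8 genes in the 5 other populations, with 95% confidence intervals; filled points passed an adjusted p under 0.05. MSC differ in all 8 genes, heart Sca1 cells in none, and heart c-kit cells in Vwf alone.

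The list of 56 other endothelial genes had the same order of means as the 8 among the heart populations, and both were lowest in the marrow. Within the marrow their orders were opposite: the 8 averaged 0.68 in c-kit cells and -0.74 in MSC, and the list 0.47 and 0.65. The list's mean level was 4.03 to 4.39 in heart c-kit cells, 1.68 to 4.28 in heart Sca1 cells, 1.82 to 1.93 in SP cells, 0.45 to 0.48 for the c-kit cells of the marrow, 0.58 to 0.76 for MSC and 5.25 to 5.59 for cardiomyocytes. The cardiomyocyte arrays were the top arrays for this list as well as for the cardiomyocyte list; with array medians aligned, however, heart c-kit cells had the higher group mean (4.70 against 4.11 in cardiomyocytes). The pericyte and smooth muscle list averaged at most 4.11 over 8 genes in the other populations and 5.30 to 5.38 in cardiomyocytes, but with array medians aligned SP cells (4.91) stood above cardiomyocytes (4.08). The part of such cells in the differences from cardiomyocytes was not tested, and in RNA of whole populations fewer cells of a type and less RNA per cell cannot be told apart. Against cardiomyocytes 25 of the 56 were lower in SP cells, 39 in c-kit cells of the marrow and 35 in MSC, with medians of -3.90, -5.21 and -4.64, while all genes had medians of 0.06, 0.14 and 0.10. Cdh5, the cadherin of endothelial junctions, differed by -8.80 ± 1.71 in SP cells, and Ptprb, an endothelial receptor phosphatase, by -10.67 ± 0.96 in c-kit cells of the marrow and -11.38 ± 0.96 in MSC, where 1 array was at the repeated value. Heart c-kit cells had 4 of the 56 lower, with a median over the list of -1.06, among them the gap junction gene Gja5 (-5.43 ± 1.14) and Ramp2 (-3.85 ± 0.65), which encodes a partner of the adrenomedullin receptor. Procr, the endothelial protein C receptor, was the 1 that rose (3.33 ± 0.58, adjusted p = 0.00595, limma). Over all genes 634 were called in heart c-kit minus cardiomyocytes, 458 of them lower.

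**Figure D4:**
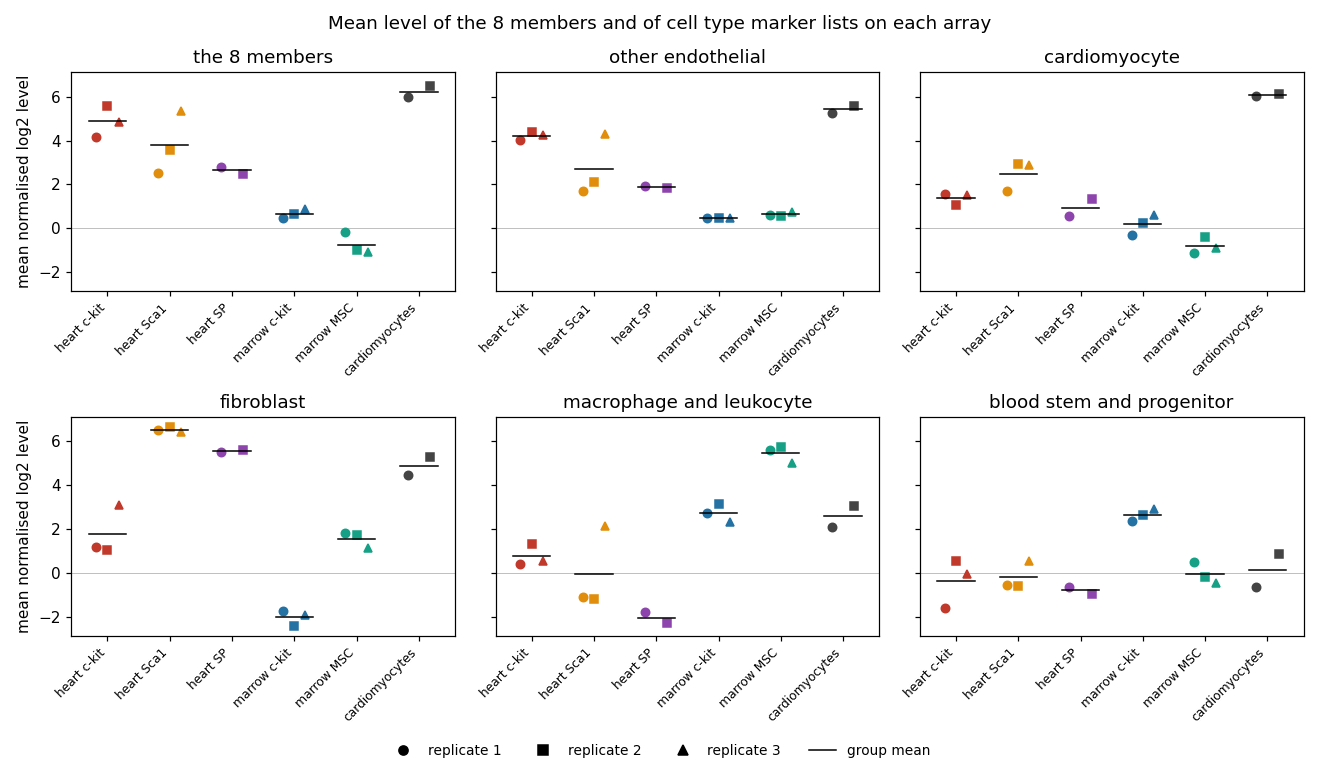
Mean normalised log2 level (y axis) of the 8 genes and of 5 marker lists on each of the 16 arrays, by cell population (x axis), with group means as bars. The 8 genes and the other endothelial list have the same order of group means among the 4 heart populations, with cardiomyocytes on top at this normalisation; with array medians aligned heart c-kit cells are above them in both.

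Between organs, c-kit cells of the heart exceeded those of the marrow in 4 genes, against 4.88% of all genes called higher. Tmem204 was higher by 9.14 ± 0.97 (adjusted p = 2.48e-05), Emcn by 7.38 ± 1.67 (adjusted p = 0.00998), Fgd5 by 6.79 ± 0.78 (adjusted p = 4.83e-05) and Esam by 6.15 ± 0.81 (adjusted p = 0.000171). The Emcn call was lost with array weights per group (adjusted p = 0.0754). With low values raised Tmem204 was higher by 7.87, Emcn by 6.77 and Fgd5 by 6.22. No array of one population reached the other for any of them, which held for 12.2% of all genes. Of the other endothelial genes 34 of 56 rose in the same comparison, with a median of 3.93 against 0.11 over all genes. They included Fabp4, a fatty acid carrier of capillaries (11.03 ± 0.91), Sox17, a transcription factor of arterial endothelium (9.43 ± 1.51, with 1 marrow c-kit array at the repeated value), Cdh5 (9.39 ± 1.40) and Procr (8.88 ± 0.52). The sorted receptor gene Kit itself stood at 3.67 ± 1.46 in heart c-kit cells and 5.5 ± 0.32 in marrow c-kit cells (SD, n = 3 each), and averaged at most 1.26 in the other populations.

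Heart Sca1 cells were set against MSC as the other pair of heart and marrow populations, and exceeded them in 5 of the 8 genes, against 5.3% of all genes called higher. The heart cells were sorted and the MSC passaged, so organ, isolation and passaging cannot be told apart in this pair. Tmem204 was higher by 10.43 ± 0.97 (adjusted p = 2.09e-05), Fgd5 by 9.33 ± 0.78 (adjusted p = 9.30e-06), Pecam1 by 6.49 ± 1.12 (adjusted p = 0.00193), Cd34 by 4.26 ± 0.56 (adjusted p = 0.000230) and Esam by 2.87 ± 0.81 (adjusted p = 0.0379). Against the same dim MSC spots, the differences were 8.17 for Tmem204, 6.74 for Fgd5 and 5.08 for Pecam1 with low values raised, all called. The Esam call was lost without heart Sca1 replicate 3 (1.86, when 7.76% of all genes were called), without Sca1 replicate 1, without any 1 MSC array, without marrow c-kit replicate 2 or 3, and under both other scalings. Among the 56 other endothelial genes 13 rose and 2 fell, when 1825 of all genes were called in either direction, 938 of them higher. Tek, the angiopoietin receptor, rose by 9.01 ± 0.68, Sox7 by 7.63 ± 0.81, Ramp2 by 7.48 ± 0.58 and Ptprb by 7.47 ± 0.86, with 1 MSC array at the repeated value for Sox7 and for Ptprb.

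Cd34 was the 1 gene of the 8 for which the heart minus marrow difference itself differed between the 2 pairs of populations: it was 1.40 for the c-kit cells and 4.26 for heart Sca1 cells minus MSC, and the interaction was -2.85 ± 0.79 (adjusted p = 0.0416, limma, 3.78% of all genes called lower). That call was lost under both other scalings and without any 1 of the heart Sca1 arrays, heart c-kit replicate 1 or 3, MSC replicate 2 or 3, or marrow c-kit replicate 2 or 3. Isolation and passaging also differ between heart Sca1 cells and MSC, and cannot be told apart from organ in the interaction. Esam, with 6.15 against 2.87, gave an interaction of 3.29 ± 1.15 (adjusted p = 0.109), which did not pass. Without heart Sca1 replicate 3 Esam was called instead, at 4.29 (adjusted p = 0.0187), when 5.7% of all genes were called in either direction. That replicate was the highest Sca1 array for Esam, so its omission enlarges the Esam interaction by construction. Within the marrow only Pecam1 differed among the 8: marrow c-kit cells were higher than MSC by 5.89 ± 1.12 (adjusted p = 0.00322), against 3.66% of all genes called higher. The macrophage and leukocyte list, whose cells can carry Pecam1, went the other way, at 2.32 to 3.15 in the c-kit cells and 5.04 to 5.74 in MSC, and its part was not tested. Of the 56 other endothelial genes 3 were called higher and 10 lower in marrow c-kit cells than in MSC. Over all genes 1950 were called in either direction, 648 of them higher. In the list 33 genes lay above 0 and the median was 0.24, against 0.14 over all genes. The largest called differences were those of Fabp4 (-9.93 ± 0.91), S1pr1 (-8.00 ± 1.15, with 1 marrow c-kit array at the repeated value), Procr (-6.45 ± 0.52) and Cav1 (-5.95 ± 0.73).

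Among the cardiac populations, Esam was the single call between the c-kit and the Sca1 sorts, higher in heart c-kit cells (3.55 ± 0.81, adjusted p = 0.0127, limma), against 3.29% of all genes called higher. It was lost with array weights per group or with only these groups fitted, when 1391 and 780 of all genes were called in either direction. Without heart Sca1 replicate 3 the Esam difference was 4.56, and Emcn was called beside it at 6.72, compared with 4.73 ± 1.67 on all arrays (adjusted p = 0.0859), when 7.59% of all genes were called in either direction. Replicate 3 was the highest Sca1 array for both genes, so its omission enlarges these differences by construction. Of the 56 other endothelial genes 12 were higher in heart c-kit cells and 4 lower. Over all 17710 genes 1966 were called in either direction, 582 of them higher, so the lower genes were no larger a share than over all genes. Hhex (5.78 ± 1.10, with 1 heart Sca1 array at the repeated value), F11r (5.47 ± 1.24) and Cdh5 (5.24 ± 1.40) were higher. Ace, which encodes angiotensin-converting enzyme, was lower by 6.16 ± 0.75. SP cells were set against both other sorted populations in 2 comparisons that were added after the values had been seen. They were lower than heart c-kit cells in Emcn (-6.60 ± 1.87, adjusted p = 0.0339) and Esam (-4.95 ± 0.91, adjusted p = 0.00288), against 5.99% of all genes called lower. The Emcn call was lost without either SP array, without heart c-kit replicate 2 or 3, or with array medians aligned. Against heart Sca1 cells, SP cells were lower in Vwf (-5.22 ± 1.29, adjusted p = 0.0281; 4.62% of all genes called lower), and that call was lost without heart Sca1 replicate 3 (-3.78, when 3.14% of all genes were called in either direction), with array medians aligned, with low values raised (-3.05, adjusted p = 0.166, when Tmem204 was called in its place at -1.54), or without SP replicate 1, the array on which the Vwf probe carried the repeated value. Of the 56 other endothelial genes, 24 were lower and 3 higher in SP than in heart c-kit cells, and 2 were lower and 2 higher in SP than in heart Sca1 cells. Over all genes 2087 were called in the former comparison, 1061 of them lower, and 1210 in the latter, 819 of them lower. The list counts other than the 24 were thus close to the shares over all genes.

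The 3 arrays of heart Sca1 cells did not give one level for these genes. Replicate 3 was the highest of the 3 for 6 of the 8 genes, while it was so for 30.5% of all genes; with array medians aligned it was so for 5 of the 8 and 20.7% of all genes. It exceeded the mean of replicates 1 and 2 by 5.97 in Emcn, 4.34 in Vwf, 3.03 in Esam, 2.90 in Pecam1 and 1.66 in Icam2. Fgd5 differed by 0.40, Tmem204 by 0.06 and Cd34 by -0.14, so the genes that were high in all 3 Sca1 arrays were level across them. The mean over the 8 genes was 2.52, 3.58 and 5.33 on Sca1 replicates 1, 2 and 3, which put the last array beside heart c-kit cells (4.18, 5.58 and 4.84) and under cardiomyocytes (5.97 and 6.47).

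**Figure D5:**
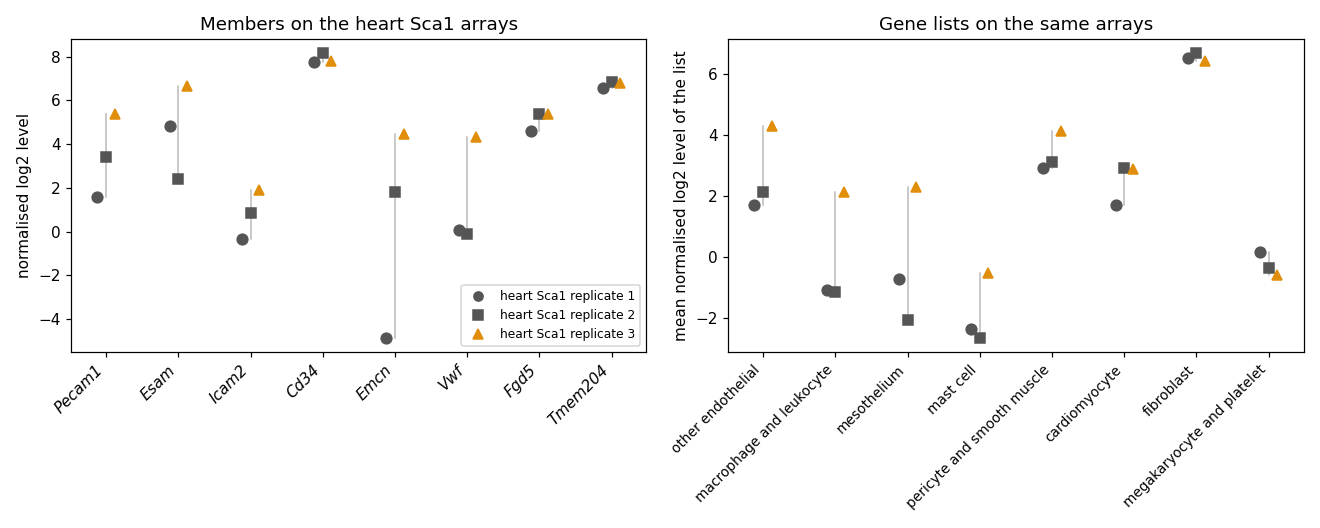
Left, normalised log2 level (y axis) of each of the 8 genes on the 3 heart Sca1 arrays. Right, mean normalised log2 level (y axis) of marker lists on the same arrays. Emcn, Vwf, Esam and Pecam1 are highest on heart Sca1 replicate 3 (4.45, 4.31, 6.63 and 5.38), and Cd34, Tmem204 and Fgd5 are level over the 3 Sca1 arrays.

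Lists of other cell types moved with the same array. The other endothelial genes averaged 1.68, 2.13 and 4.28 on Sca1 replicates 1, 2 and 3, and replicate 3 was the highest for 42 of 56. Macrophage and leukocyte genes averaged -1.08, -1.15 and 2.13, with replicate 3 highest for 9 of 10, and mesothelium genes -0.71, -2.06 and 2.29, highest for 5 of 5. Cardiomyocyte genes averaged 1.70, 2.92 and 2.88 and fibroblast genes 6.50, 6.67 and 6.41, so neither of these lists set replicate 3 apart. Replicate 3 was also the highest for 6 of 8 pericyte and smooth muscle genes, 6 of 8 blood stem and progenitor genes and 5 of 6 mast cell genes, whose medians over the mean of the other arrays were 0.75, 0.63 and 1.60, against 2.28 for the 8 genes, and for 1 of 3 lymphatic genes. None of the 10 megakaryocyte and platelet genes was highest on replicate 3. The sort had removed CD31 and CD45 positive cells per the labels; the part of such cells in the levels of replicate 3 was not tested. Cdh5, which no gate used, ranged from -3.41 to 4.82 over the 3 arrays, and Robo4, a guidance receptor of vessels, from -1.73 to 5.93. Tek (5.98 to 6.50) and Ramp2 (6.56 to 6.70) stayed level, as Fgd5 and Tmem204 did.

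The genes most like the mean of the 8 over the 16 arrays were Ptprb (Pearson r = 0.946), Mmrn2 (0.941), Sox17 (0.940), Cldn5 (0.940), Ushbp1 (0.935), Apold1 (0.920), Wt1 (0.919), Sox7 (0.908), Card10 (0.907) and Robo4 (0.907), out of 16153 genes searched. These r values describe 16 arrays that fall into 6 populations, and 6 of the 10 genes were on the other endothelial list. Single genes had different neighbours among 16160 searched: Emcn was most like Cdh5 (r = 0.957) and Arhgef15 (0.952), Fgd5 like Sox7 (0.966) and Ptprb (0.957), Esam like Sox18 (0.960) and Kdr (0.958), and Tmem204 like Tek (0.952) and Slc35f5 (0.952). Cd34 was most like Ecrg4 (0.947) and Wasl (0.942), Pecam1 like Siah1a (0.947) and Tmem30a (0.894), Icam2 like Btnl9 (0.899) and Gimap4 (0.891), and Vwf like Ces2e (0.848) and Rhpn2 (0.842), none of which was on that list. Over the 28 pairs of the 8 genes r had a median of 0.641 across all arrays and 0.172 for deviations from the group means, so most of the likeness lay between populations.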

How the data were processed

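Per the labels, total RNA of 16 samples was amplified to cDNA, labelled with Cy5 and hybridised to a 2-colour array of which only Cy5 was used. The authors deposited log2 values. As read from the values, each array was centred on its mean except MSC replicate 3, whose mean was 0.3. Intensities recovered from the values are whole numbers. One repeated value fills 3.38% to 13.8% of probes per array. The sources used here give neither a background correction nor the rule of the fill.

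Array medians spanned 1.45 units, so values were quantile normalised (limma 3.58.1, R 4.3.3). Of 26423 probes, 18213 were named by symbol and 2126 by synonym, 38 were ambiguous and 6046 had none. A gene took its probe with the highest mean. A 6-group limma model gave an F test, 11 comparisons (2 added after the values were seen) and 1 interaction, each a log2 difference with SE and Benjamini-Hochberg adjustment over 17710 genes, called under 0.05, with eBayes moderation (prior degrees of freedom 3.81). The model code was tested on simulated data. The genes, lists and rules were chosen with earlier results of these data known. The rule for other endothelial genes named the 4 largest called differences of a comparison whose groups did not overlap. Likeness left out genes at the fill value on over 4 arrays. Alternatives covered scaling, low values, probe choice, moderation, array weights, a replicate block and leaving out each array. Deviations of same-numbered samples correlated with a median of 0.00739 over 36 pairs (-0.183 to 0.399). The numbers were not used as pairs in the main model, and pairing of some samples is not excluded.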

Additional observations from a re-analysis of the deposited data

Results flagged for a closer look

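The heart minus marrow difference of Cd34 differed between the pairs of populations: it was 1.40 between c-kit cells (heart 6.40, marrow 5.00) and 4.26 between heart Sca1 cells (7.91) and MSC (3.66), and the interaction was -2.85 ± 0.79 (SE, adjusted p = 0.0416, limma). It was called because the difference of the differences itself passed the test. The call was lost in 12 of the settings tried, among them array medians aligned (-1.51, adjusted p = 0.631), deposited values unchanged (-2.14, adjusted p = 0.461) and the omission of any 1 heart Sca1 array. No population had the 4 arrays that a check for a single outlying array needs. Heart Sca1 cells and MSC also differ in isolation and passaging, which cannot be told apart from organ.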

How the results depend on the processing

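Of 31 called differences, 15 stayed called under every alternative and leave-one-out fit, and none changed sign. Among all 96 differences, 776 of 864 values that kept all arrays and 1455 of 1536 that left out an array kept direction and side of the threshold. The F test called 7 or 8 of the 8 genes throughout, and heart c-kit minus marrow c-kit and Sca1 minus MSC kept counts within 1.5 times. The causes of the changes below were not tested.

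With array medians aligned the counts of called genes were 0 (heart c-kit minus cardiomyocytes), 3 (marrow c-kit minus cardiomyocytes), 4 (MSC minus cardiomyocytes), 1 (SP minus heart c-kit), 0 (SP minus Sca1) and 0 (interaction). In that order 148, 928, 749, 1716, 1707 and 832 of all genes were called, against 634, 2200, 1393, 2087, 1210 and 1315 in the main fit. SP minus cardiomyocytes kept its count, with Cd34 (higher in SP cells) in place of Esam, and called 2619 of all genes, against 916 in the main fit. With deposited values unchanged the counts of called genes were 0 (heart c-kit), 1 (SP), 3 (marrow c-kit) and 4 (MSC) against cardiomyocytes, and 0 for the interaction. In that order 223, 829, 1058, 926 and 918 of all genes were called. Array weights per group gave 0 (heart c-kit) and 1 (SP) against cardiomyocytes, 0 (heart c-kit minus Sca1), 3 (marrow c-kit minus MSC), 0 (SP minus heart c-kit) and 0 (SP minus Sca1). In that order 242, 128, 1391, 4365, 492 and 336 of all genes were called. The main fit called 1966 for heart c-kit minus Sca1 and 1950 for marrow c-kit minus MSC. Fitting only the groups compared gave 0 for heart c-kit and SP against cardiomyocytes, heart c-kit minus Sca1, SP minus heart c-kit and SP minus Sca1. This setting called 3, 0, 780, 77 and 176 of all genes there, in the same order. With so few calls against cardiomyocytes, the counts of 0 in those comparisons do not set these genes apart from the rest. Array weights also ended the Emcn calls of heart c-kit minus marrow c-kit and of both marrow populations against cardiomyocytes, and fitting only the groups compared ended Esam in Sca1 minus MSC. Raising low values, averaging probes, or trend and robust moderation gave 2 for heart c-kit minus Sca1. In that order these settings called 2399, 1983 and 2194 of all genes there. Averaging probes added Pecam1 (higher in heart c-kit cells) to Esam, and the other settings added Cd34 (lower in heart c-kit cells).

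With medians aligned these differences reversed. Heart c-kit minus cardiomyocytes became 0.13 (Fgd5), 1.58 (Tmem204), 1.62 (Cd34), 1.95 (Esam) and 0.43 (Icam2). Sca1 minus cardiomyocytes became 0.054 (Fgd5) and 1.58 (Tmem204). SP minus cardiomyocytes became 2.04 (Pecam1), 0.38 (Fgd5) and 1.76 (Tmem204). Heart c-kit minus Sca1 became 0.071 (Fgd5) and 0.0038 (Tmem204), marrow c-kit minus MSC -0.22 (Esam), SP minus heart c-kit 0.26 (Fgd5) and 0.18 (Tmem204), and SP minus Sca1 0.33 (Fgd5) and 0.18 (Tmem204). With deposited values, reversals were heart c-kit minus cardiomyocytes 0.87 (Tmem204), 0.92 (Cd34) and 1.24 (Esam), Sca1 minus cardiomyocytes 1.37 (Tmem204), SP minus cardiomyocytes 0.78 (Pecam1) and 0.49 (Tmem204), marrow c-kit minus MSC -0.089 (Esam) and SP minus Sca1 -0.46 (Icam2). Averaging probes gave -0.63 for Pecam1 in heart c-kit minus cardiomyocytes, and raising low values -0.15 for Tmem204 in marrow c-kit minus MSC.

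Same-numbered deviations had a median r of 0.00739 (-0.183 to 0.399), against -0.000746 for other pairs. The highest was that of heart c-kit and cardiomyocyte replicate 1. Deviations of the SP arrays mirror each other, as do those of the cardiomyocyte arrays, so the median cannot settle whether some samples were paired. A replicate block gave counts of 1 for SP minus heart c-kit and 0 for the interaction, where it called 1946 and 1228 of all genes. It reversed Pecam1 (-0.028) and Emcn (-0.36) in heart c-kit minus cardiomyocytes and Tmem204 (0.029) in Sca1 minus cardiomyocytes.

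Leaving out 1 array, counts ranged from 0 to 1 (heart c-kit), 0 to 2 (Sca1), 1 to 3 (SP), 3 to 5 (marrow c-kit) and 5 to 8 (MSC) against cardiomyocytes, 1 to 2 (heart c-kit minus Sca1), 1 to 2 (SP minus heart c-kit), 0 to 2 (SP minus Sca1) and 0 to 1 (interaction, where Esam took the place of Cd34 without Sca1 replicate 3). Differences that changed sign ranged as follows. In heart c-kit minus cardiomyocytes they were -0.76 to 1.13 (Pecam1) and -0.47 to 0.69 (Emcn), and in Sca1 minus cardiomyocytes -0.19 to 0.054 (Tmem204). In Sca1 minus MSC they were -1.59 to 0.63 (Vwf), and in marrow c-kit minus MSC -0.93 to 0.23 (Emcn), -0.050 to 2.18 (Tmem204) and -0.12 to 0.49 (Esam). In SP minus heart c-kit they were -1.54 to 0.60 (Fgd5), in SP minus Sca1 -4.53 to 0.12 (Emcn), -2.06 to 0.083 (Fgd5), -0.086 to 0.25 (Cd34) and -0.35 to 0.78 (Icam2), and in the interaction -0.33 to 0.85 (Icam2).

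Dim signal limits the SP arrays and 1 heart c-kit array, and spots at the repeated value give no measured level, though the fits used them as values.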
